A study of Arabidopsis thaliana with 18 samples.

Results

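The 44 genes described here were expressed in dark-grown Arabidopsis thaliana seedlings and were lower in all 5 light groups of a greening series. The data were RNA sequencing of polyA RNA from wild type seedlings, and the genotype was the same in every group. Seedlings had 7 days of darkness, which leaves them etiolated, and then 0 (dark), 1, 2, 4, 8 or 12 hours of light. Each of the 6 times had 3 libraries, 18 in all. Genes were chosen by their dark and light FPKM: a gene was taken when its mean in the dark was 5 FPKM or more, was at least 2.5 times the mean of each light time, and every dark library lay above every 1 h library. FPKM is the deposited level per transcript length and sequencing depth. Of 24951 genes listed in any library, 12848 reached the dark minimum and 46 met the whole rule. Leaving out AT5G54190 and AT4G16780, as the rule states, gave the 44 genes. The labels name no ecotype, age at harvest or light source. The study has no seedlings that stayed dark while the others were lit, so hours of light, seedling age and time of day cannot be told apart.

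Etiolated seedlings spend their reserves on a long hypocotyl that pushes the closed cotyledons towards the surface. In darkness the phytochrome interacting factors (PIFs), bHLH proteins that bind G-box and related DNA elements, switch on genes of auxin response, cell expansion and shade response. Light converts phytochrome to its active form, PIFs are degraded within minutes, hypocotyl growth slows and the cotyledons open and green. The SAUR genes (small auxin up RNAs) are short auxin-responsive genes, and proteins of the SAUR19 group promote cell expansion by holding back phosphatases that act on plasma membrane proton pumps.

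The choice of genes rested on the dark-to-light difference, so the values of this paragraph are a description and carry no test. The dark mean ran from 5.17 FPKM (HB4) to 384 FPKM (XTH15) with a median of 11.9 FPKM, and 14 genes were above 20 FPKM. The ratio of the 1 h mean to the dark mean had a median of 0.191 over the 44 genes and was highest at 0.38 in ASPGB1. At 1 h, 14 genes had a ratio of 0.1 or less and 25 a ratio of 0.2 or less. Of the difference between dark and 12 h, a median of 91.8% was already present at 1 h, with a range over genes of 68.2% to 120%. The 44 genes together held 0.224%, 0.269% and 0.284% of all FPKM in the dark libraries, then 0.0579% to 0.0597% at 1 h, 0.0388% to 0.0522% at 2 h, 0.0312% to 0.0417% at 4 h, 0.0278% to 0.0318% at 8 h and 0.0213% to 0.029% at 12 h. The share was thus lower in every light library than in any dark library. By edgeR's fit, 43 of the 44 genes were lower at 1 h than in the dark at the call threshold used below (2.09% of 20569 genes tested) and none was higher (3.66%; 5.75% in either direction). At 12 h all 44 were lower (9.19% of genes tested) and none was higher (13.1%; 22.3% in either direction). The rule largely fixes these counts and nothing is read from them. The genes were read from whole seedlings, in which fewer cells of a type and less RNA per cell cannot be told apart.

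**Figure D1:**
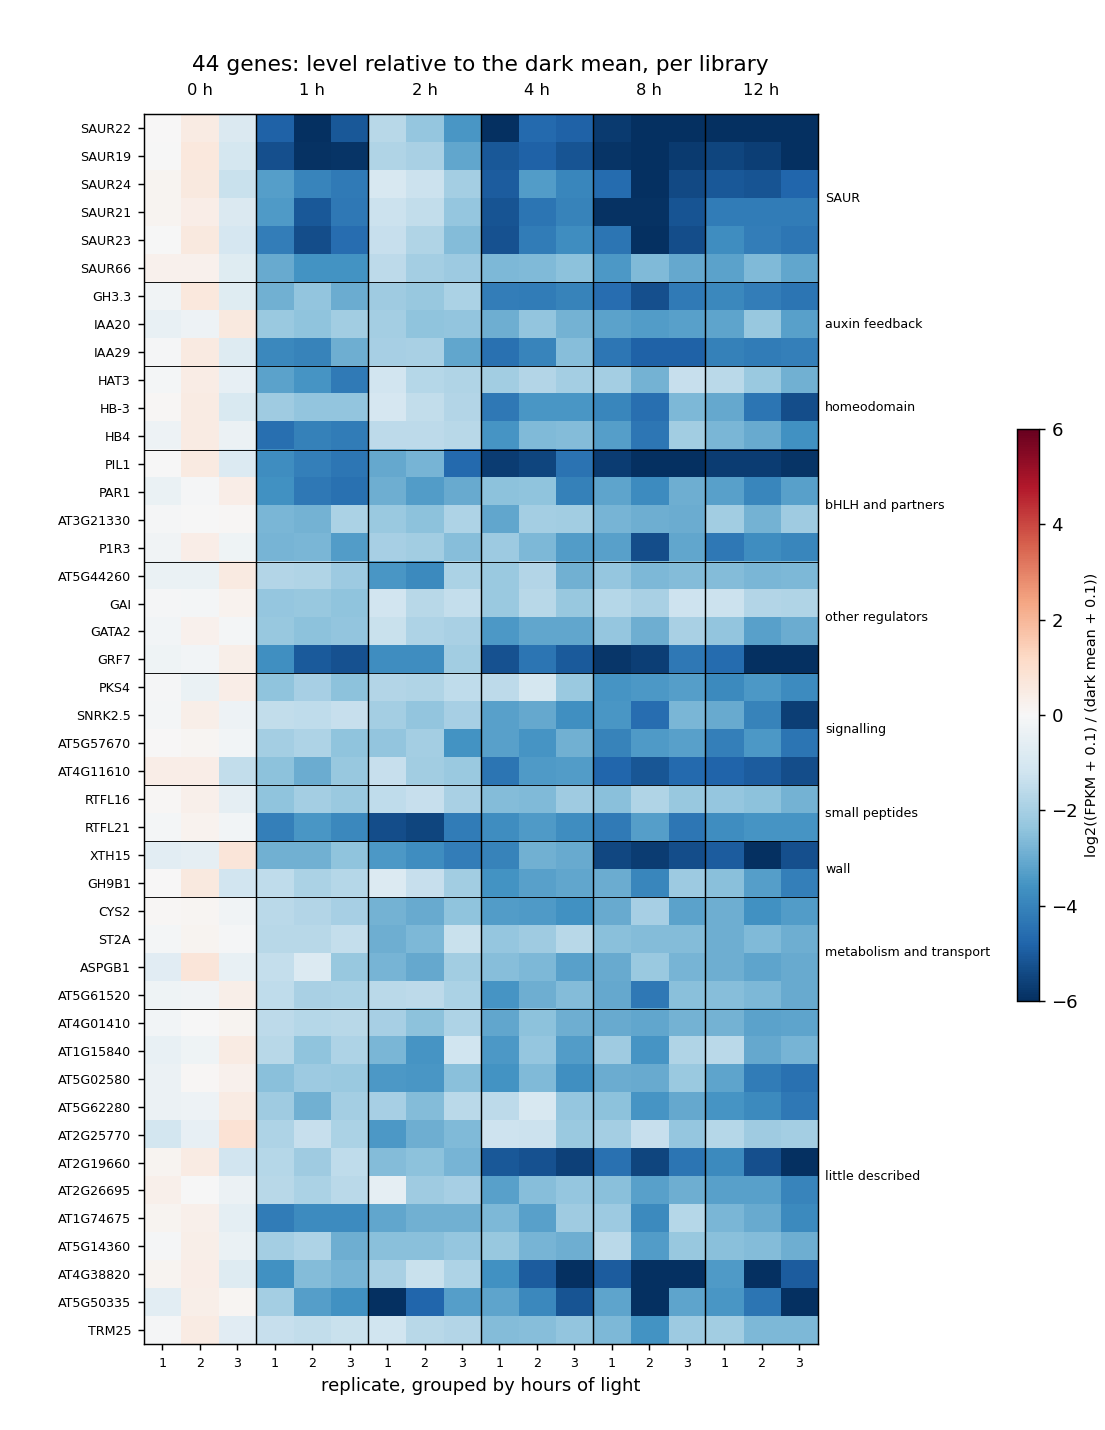
Each row is a gene and each column a library (replicates 1 to 3 within each number of hours of light). Colour gives log2 of the FPKM plus 0.1 over the dark mean plus 0.1, with blue below the dark mean. All 1 h columns are blue, the 5 SAUR genes at the top turn paler at 2 h and darker again at 4 h, and PIL1 and XTH15 are darkest at 8 h or 12 h.

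Values near the limits of the rule show where it cut. Closest inside the limit on the ratio of the dark mean to the highest light mean were GH9B1 at 2.54, SAUR24 at 2.61 and ASPGB1 at 2.63. Closest outside were AT4G23030 at 2.496, AT4G01335 at 2.48 and PORB, a chlorophyll synthesis enzyme, at 2.41. By dark mean, HB4 at 5.17 FPKM, TRM25 at 5.46 FPKM and SAUR66 at 6.05 FPKM were just inside, and AT4G38825 at 4.75 FPKM, MYB10 at 4.29 FPKM and AT1G29450 at 4.07 FPKM just outside. The lowest dark library over the highest 1 h library gave 1.11 in ASPGB1, 1.23 in AT2G25770 and 1.28 in GH9B1. It gave 0.855 in AT1G05835 and 0.767 in both AT3G28290 and AT3G28300, which were among 4 genes that missed the rule by this overlap alone.

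Library depth was even, at 20072467 to 22760811 summed expected counts. Markers of other tissues moved between libraries. The 8 seed storage and oil body markers summed to 655 to 11800 FPKM in the dark, with 11800 in dark replicate 3, to 4040 to 7810 at 1 h and to 9.41 to 26.1 at 12 h, when AT4G27160 was listed at 0 in every library. The 10 root markers summed to 711 to 1570 FPKM in the dark, 933 to 1090 at 1 h, 1320 to 4190 at 2 h and 1030 to 1430 from 4 h on. The 5 green tissue markers summed to 10400 to 12500 FPKM at 12 h and 765 to 894 in the dark, and the 5 stomatal lineage markers to 12.3 to 19 at 12 h and 3.9 to 10.3 in the dark. All markers of the 4 lists were detected in the dark. Their part in the results below was not tested. Without dark replicate 3, 61 genes met the rule, 41 of them among the 44.

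The dark replicates differed more for these genes than for most. Dark replicate 2 was the highest for 27 of the 44 genes and dark replicate 3 the lowest for 26. Of the 44 genes, 23 had both, against 15.9% of all genes at the dark minimum. The highest dark library was a median of 1.92 times the lowest over the 44 genes, against 1.33 times over all genes at the dark minimum. Of the 12 SAUR, auxin feedback and homeodomain genes, 10 were highest in dark replicate 2 and lowest in dark replicate 3. That replicate also had the highest seed storage sum and the lowest root sum of the 3 dark libraries.

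The differences among the light hours were tested, because the rule used neither their order nor their size. It does cap every light mean and keeps the 1 h libraries under the dark ones. The cap left out genes that climbed back in the light, such as SAUR50 and SAUR16 (log2 fold changes of 2.56 and 2.13 for 12 h over 1 h). The shares over all genes tested carry no such cap, so the counts of rises and falls are not set against like genes. A gene is said to rise or fall between 2 times where 2 conditions held in edgeR's quasi-likelihood test: the adjusted p (Benjamini-Hochberg) was under 0.05, and the size of the log2 fold change was 1 or more. Of the 44 genes, 36 differed somewhere among the 5 light times by the F test (69.8% of all genes tested did). From 1 h to 2 h, 8 genes rose (15.7% of all genes tested) and 6 fell (5.66% of all genes tested), 14 in all (21.4%). From 2 h to 4 h, 2 rose (2.04%) and 15 fell (7.73%), 17 in all (9.77%). From 4 h to 8 h, 3 fell (1.67%) and none rose (1.9%; 3.57% in either direction). Between 8 h and 12 h none was called by edgeR (0.0% of all genes tested) or by DESeq2, which called 7 of all genes, and 4 of the 44 had an unadjusted edgeR p under 0.05, against 944 of all genes. Over the whole span, 19 were lower at 12 h than at 1 h (8.33% of all genes tested) and 1 was higher (14.7%), 20 in all (23.0%). The median log2 fold change of the 44 genes was 0.36 for 2 h over 1 h (0.12 over all genes tested), -0.70 for 4 h over 2 h (all genes 0.0) and -1.19 for 12 h over 1 h (all genes 0.02). With library size alone as the scaling, the 2 h calls were 10 higher and 4 lower, and the median over all genes for 2 h over 1 h was 0.25. The highest light mean was at 1 h for 15 genes and at 2 h for 23, and the lowest was at 8 h for 13 and at 12 h for 16.

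**Figure D2:**
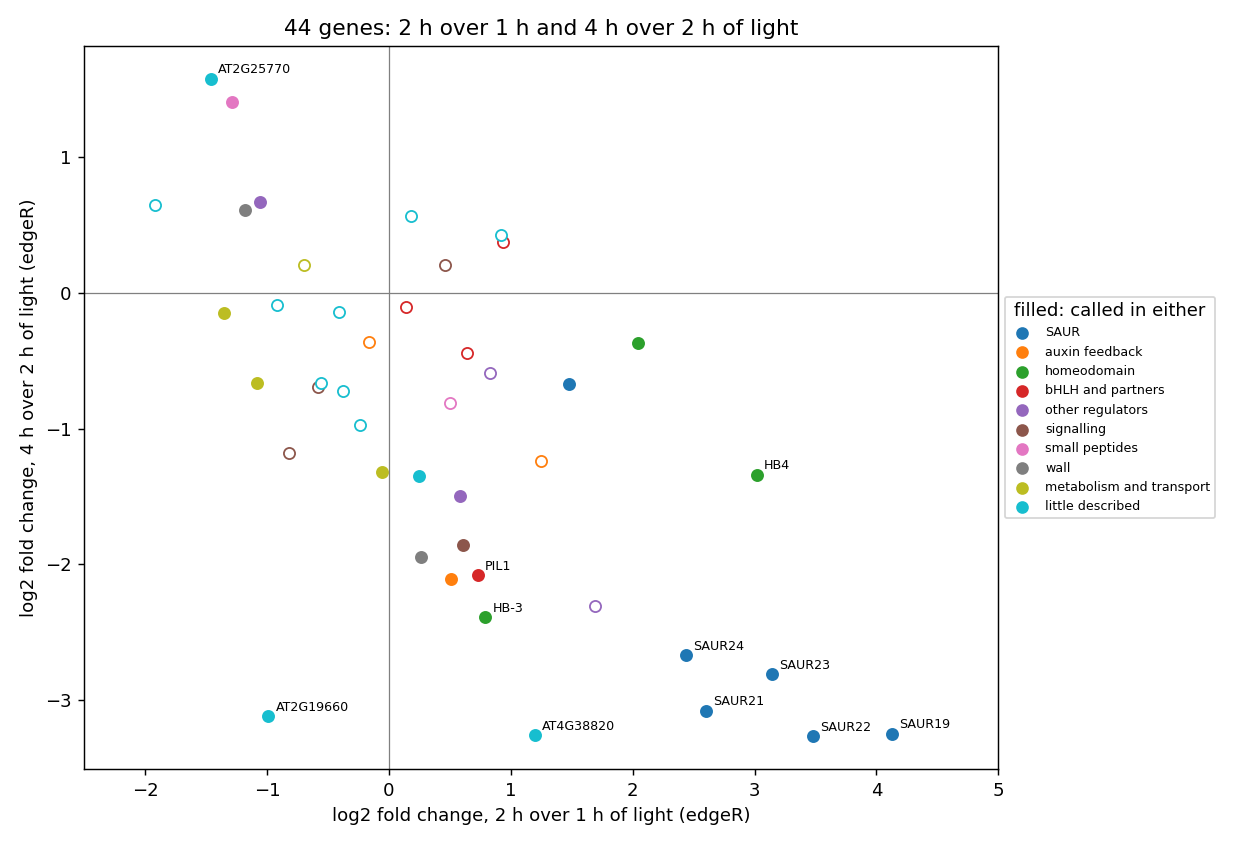
Each point is a gene, placed by its edgeR log2 fold change of 2 h over 1 h (horizontal) and of 4 h over 2 h (vertical) and coloured by role. Filled points were called in either comparison. The SAUR19 group lies at the lower right (2.44 to 4.13 and -3.27 to -2.67), AT2G25770 and the small peptide RTFL21 lie at the upper left. Both axes use the 2 h libraries, so they share values.

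SAUR19, SAUR21, SAUR22, SAUR23 and SAUR24 were low at 1 h, rose at 2 h and fell again at 4 h. Their 1 h means ran from 0.13 FPKM (SAUR19) to 0.737 FPKM (SAUR24). SAUR66 also rose at 2 h. The summed FPKM of the 6 genes was 60.4, 80.9 and 28.3 in the dark libraries, 3.26, 1.38 and 1.82 at 1 h, 20.7, 16.3 and 8.91 at 2 h, 1.57, 3.19 and 3.09 at 4 h, 1.31, 1.07 and 1.14 at 8 h, and 1.75, 1.95 and 1.56 at 12 h. The 2 h libraries lay above all other light libraries and below the dark ones. All 6 genes had every 2 h library above every 1 h library, as did 19 of the 44 (39.8% of all genes tested).

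SAUR24, with the highest 2 h mean of the group, had 12.8, 17.2 and 4.57 FPKM in the dark, 1.06, 0.64 and 0.51 at 1 h, 5.82, 4.66 and 2.76 at 2 h, and 0.26, 1.03 and 0.68 at 4 h. Its log2 fold change was 2.44 (SE 0.547, adjusted p = 0.00215 by edgeR) for 2 h over 1 h and -2.67 (SE 0.555, adjusted p = 0.00459 by edgeR) for 4 h over 2 h. The 2 h libraries overlapped neither the 1 h nor the 4 h libraries. SAUR21 had 10.5, 12.1 and 5.02 FPKM in the dark, 0.78, 0.17 and 0.37 at 1 h, 3.74, 3.24 and 1.73 at 2 h, and 0.16, 0.35 and 0.47 at 4 h. It showed the same separation, with log2 fold changes of 2.60 (edgeR adjusted p = 0.000946) and -3.08 (edgeR adjusted p = 0.00177). SAUR22 rose at 2 h (log2 fold change 3.48, edgeR adjusted p = 0.00339) and fell at 4 h (-3.27, edgeR adjusted p = 0.0108). SAUR23 (AT5G18060) did likewise (3.14, edgeR adjusted p = 0.00236, and -2.81, edgeR adjusted p = 0.00984).

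SAUR19 (AT5G18010) had 11.4, 17.8 and 5.53 FPKM in the dark, 0.2, 0.09 and 0.1 at 1 h, 3.24, 2.96 and 1.23 at 2 h, and 0.24, 0.31 and 0.22 at 4 h. Its 1 h libraries held 1.24 to 2.68 counts each, under the floor of 3 counts per library at which a gene counts as not detected. Against that floor the 1 h level was at least 52.8-fold lower than the dark mean, and the 2 h mean at least 11.3-fold higher than the 1 h level. The fitted log2 fold change of 4.13 (edgeR adjusted p = 0.000231) depends on how the fit treats such low counts. At 8 h and 12 h SAUR19 and SAUR22 were also at or under the floor in every library, with 0 or 1 count of SAUR22 per library at 12 h. SAUR66, which lies on another chromosome, had 7.27, 7.26 and 3.63 FPKM in the dark, 0.65, 0.42 and 0.42 at 1 h, and 1.94, 1.4 and 1.25 at 2 h. It rose by 1.48 on the log2 scale (SE 0.375, edgeR adjusted p = 0.00473), and its difference of -0.67 between 4 h and 2 h did not pass the test (edgeR adjusted p = 0.178). These 8 rises at 2 h, the 6 SAUR genes and the homeodomain genes HAT3 and HB4 below, and the 5 SAUR falls at 4 h were each called with any of the 18 libraries left out.

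The 2 h root marker sums were 3820, 4190 and 1320 FPKM, and the SAUR sums were also lowest in 2 h replicate 3. In that library the root sum was 1320 FPKM against 933 to 1090 at 1 h, and the SAUR sum was 8.91 FPKM against 1.38 to 3.26 at 1 h. The part of root tissue in the SAUR values was not tested.

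**Figure D3:**
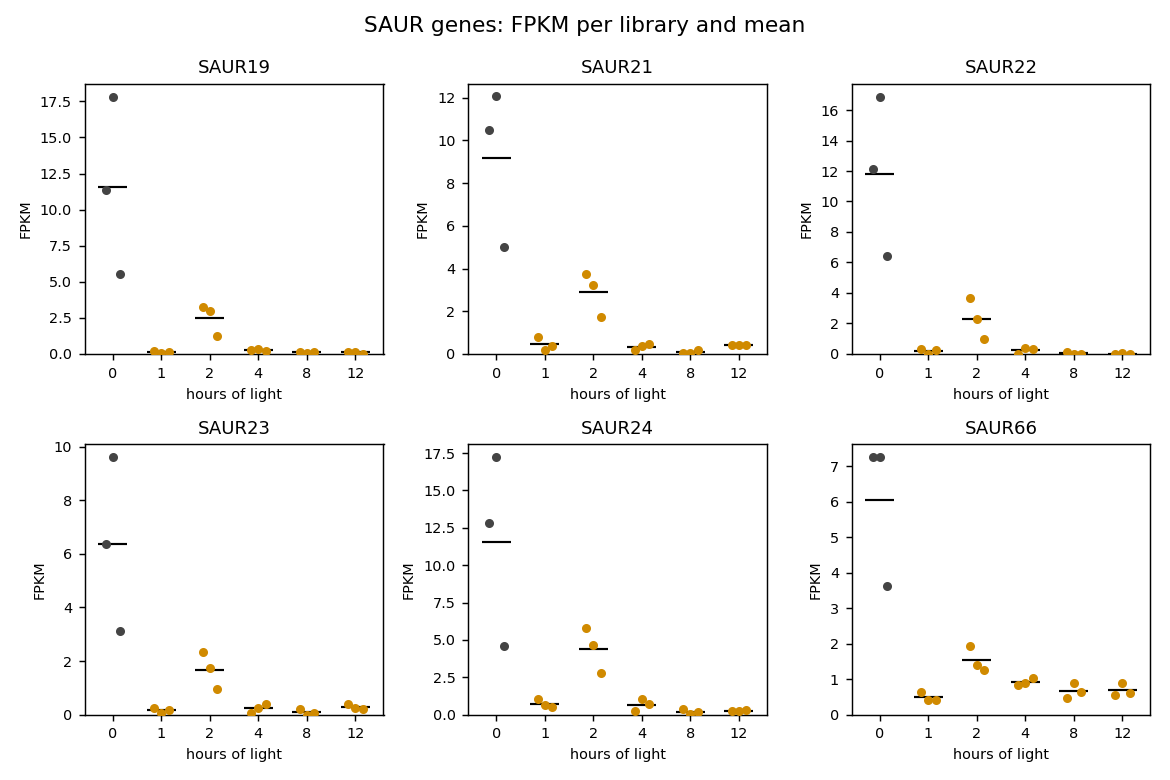
FPKM of the 6 SAUR genes (vertical, linear axes that differ between panels) by hours of light (horizontal). Points are libraries and bars their means, dark grey in the dark and orange in the light. The 2 h points stand above the 1 h and 4 h points in each panel, and SAUR24 reaches 5.82 FPKM at 2 h.

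The 5 genes of the SAUR19 group lie within chr5:5962773-5984308 (coordinates of the deposited annotation, the same as in RefSeq's TAIR10.1). Each has 1 exon. Their coding sequences are 89.7% to 95.2% identical over the 10 pairs (median 92.2%), whereas the 250 nt upstream of the annotated starts are 42.7% to 72.8% identical. SAUR19, SAUR21, SAUR23 and SAUR24 had mostly fractional counts, which arise where reads are divided between genes, so the split between the copies is uncertain. A sum over the copies is less open to that split. The sum given above adds SAUR66 and leaves out SAUR20, so reads divided with SAUR20 may be missing from it. SAUR20, in the same stretch, missed the choice because its 2 h mean of 5.84 FPKM was too close to its dark mean of 10.3 FPKM. It too was higher at 2 h (log2 fold change 2.69, edgeR adjusted p = 0.0063) and lower at 4 h (-1.95, edgeR adjusted p = 0.0461). It was picked out for this after its values were seen.

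The upstream stretches are shown to let the copies be compared where they differ most. They are 250 nt of RefSeq TAIR10.1 ending at the annotated transcript start, for SAUR21 (AT5G18030, chr5:5968102-5968351, plus strand), SAUR22 (AT5G18050, chr5:5975088-5975337, minus strand), SAUR24 (AT5G18080, chr5:5983433-5983682, plus strand) and SAUR66 (AT1G29500, chr1:10320761-10321010, plus strand). Capitals mark matches on either strand to the G-box CACGTG, the PBE-box CACATG, the auxin response elements TGTCTC and TGTCGG, and TATAAA. Each line runs 5′ to 3′ along the gene's own strand.
SAUR21: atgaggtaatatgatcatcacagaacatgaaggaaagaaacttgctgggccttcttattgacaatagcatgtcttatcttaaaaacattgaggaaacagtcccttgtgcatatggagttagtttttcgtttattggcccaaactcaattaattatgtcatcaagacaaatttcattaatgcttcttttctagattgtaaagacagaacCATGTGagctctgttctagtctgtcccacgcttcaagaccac
SAUR22: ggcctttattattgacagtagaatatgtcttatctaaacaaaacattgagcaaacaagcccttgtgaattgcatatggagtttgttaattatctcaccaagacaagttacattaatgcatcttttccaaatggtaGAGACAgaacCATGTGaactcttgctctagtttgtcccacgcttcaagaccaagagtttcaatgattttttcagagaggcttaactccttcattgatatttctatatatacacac
SAUR24: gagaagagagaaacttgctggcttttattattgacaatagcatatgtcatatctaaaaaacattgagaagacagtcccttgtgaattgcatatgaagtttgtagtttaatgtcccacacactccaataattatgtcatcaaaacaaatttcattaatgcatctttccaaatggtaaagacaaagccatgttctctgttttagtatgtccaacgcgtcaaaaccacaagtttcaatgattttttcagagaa
SAUR66: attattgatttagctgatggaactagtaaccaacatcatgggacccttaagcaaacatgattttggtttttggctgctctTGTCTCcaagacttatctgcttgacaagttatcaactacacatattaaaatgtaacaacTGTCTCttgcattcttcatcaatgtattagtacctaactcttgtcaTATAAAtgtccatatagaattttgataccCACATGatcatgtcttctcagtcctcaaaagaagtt
SAUR21 and SAUR22 share a stretch with the PBE-box read on the other strand, 42 nt and 105 nt before the start. SAUR24 has no match in its window and has a PBE-box 407 nt before the start. All 5 genes of the group have a PBE-box within 1000 nt. SAUR66 has a PBE-box 36 nt and TATAAA 65 nt before the start, and TGTCTC at 170 nt and 111 nt.

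Of the SAUR list as a whole (80 loci, 62 tested), 26 were lower at 1 h than in the dark (2.09% of all genes tested) and 3 were higher (3.66%). The 6 chosen genes are among the 26, and 17 of the 26 were below the dark minimum. The median log2 fold change was -1.90 over the list (all genes tested -0.06). Of 20 SAUR genes that reached the dark minimum, 10 had dark and 1 h libraries that overlapped. The list was drawn up by gene name. It includes AT5G01830, which also carries the name SAUR21, is among these 10 and was not checked for membership of the family. At 12 h, 25 were lower than in the dark (9.19% of all genes tested) and 7 higher (13.1%). SAUR50, named after its values were seen, averaged 18.5 FPKM in the dark, 2.92 FPKM at 1 h and 17.2 FPKM at 12 h, and was higher at 12 h than at 1 h (log2 fold change 2.56, edgeR adjusted p = 0.000285).

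The genes of auxin feedback stayed low after 1 h. They were GH3.3, whose enzyme conjugates auxin to amino acids, and IAA20 and IAA29, members of the Aux/IAA repressors of auxin response. GH3.3 (AT2G23170) had 12.2, 22.1 and 8.51 FPKM in the dark, 1.87, 2.65 and 1.7 at 1 h, 3.21, 2.84 and 3.72 at 2 h, and 0.7, 0.69 and 0.78 at 4 h. It fell between 2 h and 4 h (log2 fold change -2.11, SE 0.362, edgeR adjusted p = 0.00161), with no overlap between the 4 h and 2 h libraries. At 12 h it was lower than at 1 h (log2 fold change -1.51, edgeR adjusted p = 0.00313). IAA29 (AT4G32280) had 8.39, 13 and 5.02 FPKM in the dark, 0.5, 0.46 and 1.05 at 1 h, and 2.14, 2.19 and 0.92 at 2 h. Its 2 h and 1 h libraries overlapped, and the log2 difference of 1.25 did not pass the test (edgeR adjusted p = 0.0604). IAA20 (AT2G46990) had 1.97, 1.72 and 2.2 FPKM at 1 h, against 6.95, 7.69 and 14.3 FPKM in the dark, and no step between light times was called. Of the Aux/IAA list, 5 of 25 tested genes were lower at 1 h than in the dark (2.09% of all genes tested) and none was higher (3.66%). At 12 h 11 were lower than in the dark (9.19%) and 1 was higher (13.1%). IAA20 and IAA29, chosen for being lower, are in both counts of lower genes. Of the auxin supply list (YUC and GH3 genes), 3 of 12, GH3.3 included, were lower at 1 h than in the dark (2.09% of all genes tested) and 1 was higher (3.66%).

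The 3 homeodomain leucine zipper genes parted in their courses. HAT3 and HB4, of the class whose members respond to shade, rose from the 1 h low. HAT3 (AT3G60390, chr3:22320580-22322661) had 11.7, 17.6 and 9 FPKM in the dark, 1.27, 1.02 and 0.59 at 1 h, 5.65, 3.78 and 3.55 at 2 h, 2.95, 3.71 and 2.98 at 4 h, 3.03, 1.68 and 4.9 at 8 h, and 4.1, 2.62 and 1.62 at 12 h. Every later library lay above every 1 h library and below every dark library. The log2 fold change was 2.04 for 2 h over 1 h (SE 0.431, edgeR adjusted p = 0.00143) and 1.52 for 12 h over 1 h (SE 0.433, edgeR adjusted p = 0.0091). The call at 12 h was the only one of the 44 in that direction and was lost without 12 h replicate 1 (1.15). HB4 (AT2G44910, chr2:18517656-18519731) had 4.13, 7.33 and 4.05 FPKM in the dark, 0.13, 0.22 and 0.19 at 1 h, 1.68, 1.66 and 1.59 at 2 h, and 0.35, 0.73 and 0.77 at 4 h. The 2 h libraries stood apart from both neighbours, with a log2 fold change of 3.02 for 2 h over 1 h (SE 0.565, edgeR adjusted p = 0.000625). The difference of HB4 between 2 h and 4 h was not called. HB-3 (AT5G15150), named here beyond the naming rule, had 12.8, 16.9 and 6.32 FPKM in the dark, 2.68, 2.28 and 2.23 at 1 h, 5.92, 4.2 and 3.45 at 2 h, and 0.51, 0.96 and 0.99 at 4 h. It fell between 2 h and 4 h (log2 fold change -2.39, SE 0.564, edgeR adjusted p = 0.00839).

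Among the bHLH genes, PIL1, a shade and PIF marker, fell further within the light. PIL1 (AT2G46970, chr2:19295431-19297858) had 15.2, 22.9 and 8.92 FPKM in the dark, 1.08, 0.81 and 0.67 at 1 h, 1.78, 2.18 and 0.52 at 2 h, 0.2, 0.25 and 0.64 at 4 h, 0.2, 0.13 and 0.15 at 8 h, and 0.2, 0.2 and 0.17 at 12 h. The 8 h and 12 h libraries were all below the 1 h libraries, while the 2 h libraries overlapped the 1 h ones. It was lower at 12 h than at 1 h (log2 fold change -2.12, SE 0.579, edgeR adjusted p = 0.007). Its fall between 2 h and 4 h (log2 -2.08, edgeR adjusted p = 0.0107) was lost without 2 h replicate 2 or without 4 h replicate 1. PIL1 and IAA20 are neighbours on chromosome 2, with 9856 nt between them. PAR1 (AT2G42870), which encodes a helix-loop-helix inhibitor of the bHLH factors, had 10.13, 12.9 and 17.6 FPKM in the dark, 1.01, 0.6 and 0.52 at 1 h and 1.7, 1.23 and 1.55 at 2 h. Its 2 h libraries were all above its 1 h libraries, but the log2 difference of 0.94 did not pass the test (edgeR adjusted p = 0.0754). P1R3 (AT3G29370) had 8.87, 13.4 and 8.57 FPKM in the dark, 1.41, 1.47 and 0.92 at 1 h and 0.43, 0.69 and 0.59 at 12 h, and AT3G21330, a bHLH gene, averaged 1.88 ± 0.755 FPKM at 1 h and 10.5 ± 0.58 FPKM in the dark (SD, n = 3 each). No light step was called for either, and the log2 difference of -1.13 between 12 h and 1 h in P1R3 did not pass the test (edgeR adjusted p = 0.0737).

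Of the PIF and shade response list, 18 of 23 tested genes were lower at 1 h than in the dark (2.09% of all genes tested) and none was higher (3.66%), with a median log2 fold change of -1.88. For 7 of the 18, namely HAT3, HB4, IAA29, PAR1, PIL1, ST2A and XTH15, which are among the 44, the rule largely fixed that direction. The 2 loci left out of the 44, AT5G54190 (PORA) and AT4G16780 (HB2), also met the rule and are among the 18. Their direction was therefore largely fixed as well. At 12 h again 18 were lower (9.19% of all genes tested) and none was higher (13.1%), with a median of -2.63. The same 7 and the 2 left-out loci were among them, and both medians include these loci. This list was chosen with earlier results of these data known, so its counts are a description and no independent check. Over all 11 lists, 69 of 255 tested genes were lower at 1 h (2.09% of all genes tested) and 12 higher (3.66%). The 69 include the 16 of the 44 genes that are in a list, and the 2 left-out loci. Of the other lists at 1 h, gibberellin genes (a list without GAI) had 4 lower and 2 higher of 13. Brassinosteroid genes had 1 lower of 14, ethylene genes 3 lower and 2 higher of 23 and dark-inducible genes 3 lower of 24. Light signalling genes had 4 lower and 4 higher of 26, expansins 2 lower of 20 and XTH genes 5 lower of 20. PKS4 and XTH15, chosen for being lower, are in the light signalling and XTH counts. Over all genes tested, 2.09% were lower and 3.66% higher. Against the dark, 90 of the 255 were lower at 12 h (9.19% of all genes tested) and 23 were higher (13.1%).

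Among the other regulators, GATA2 fell at 4 h and AT5G44260 at 2 h, and GAI (AT1G14920) did not reach the size of a call. GAI, a DELLA repressor of gibberellin response, had 20.3, 19.7 and 24.6 FPKM in the dark, 4.29, 4.33 and 3.93 at 1 h, 9.77, 6.76 and 7.94 at 2 h, 4.55, 6.7 and 4.32 at 4 h, 6.48, 5.44 and 9.04 at 8 h, and 8.68, 6.34 and 6.04 at 12 h. Every 2 h and 12 h library was above every 1 h library, with an edgeR adjusted p of 0.00312 for 2 h and 0.00607 for 12 h, but the log2 fold changes of 0.83 and 0.74 were below the size set for a call. GATA2 (AT2G45050), a transcription factor that promotes photomorphogenesis, fell between 2 h and 4 h (log2 fold change -1.50, edgeR adjusted p = 0.00228). It had 17.8, 24.2 and 18.8 FPKM in the dark, 4.08, 3.55 and 3.82 at 1 h, 8.04, 5.49 and 5.14 at 2 h, and 1.8, 2.26 and 2.27 at 4 h. GRF7 (AT5G53660), a growth-regulating factor, had 0.49, 0.13 and 0.1 FPKM at 1 h, against 6.25, 6.58 and 9.39 FPKM in the dark, and no step was called. AT5G44260, a zinc finger gene also named TZF5, had 58.3, 57.5 and 111 FPKM in the dark, 22.3, 21.7 and 16.5 at 1 h, and 6.6, 5.23 and 20.3 at 2 h. Its fall at 2 h (log2 -1.06, edgeR adjusted p = 0.0351) was lost without 1 h replicate 1 or 2 and without 2 h replicate 1 or 2.

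All 4 signalling genes were lower at 12 h than at 1 h, as were 19 of the 44 genes (8.33% of all genes tested). Here and below, genes were grouped by role after their values were seen. PKS4 (AT5G04190, chr5:1150886-1152627), a phytochrome kinase substrate with a role in phototropism, had 14.5, 11.5 and 20.2 FPKM in the dark, 2.76, 3.78 and 2.74 at 1 h, 4.52, 4.29 and 5.24 at 2 h, 5.1, 7.23 and 3.18 at 4 h, 1.24, 1.32 and 1.48 at 8 h, and 1.01, 1.33 and 1.04 at 12 h. The 8 h libraries were all below the 4 h libraries, with a log2 fold change of -1.87 (SE 0.26, edgeR adjusted p = 0.000629), and the call held with any library left out. SNRK2.5 (AT5G63650), a protein kinase, had 13.4, 18.5 and 11.6 FPKM in the dark, 5.17, 5.04 and 5.48 at 1 h, and 1.69, 0.81 and 0.19 at 12 h. Its log2 fold change for 12 h over 1 h was -2.57 (SE 0.504, edgeR adjusted p = 0.000701). AT4G11610, a C2 domain protein gene, was also lower at 12 h than at 1 h (log2 fold change -3.05, edgeR adjusted p = 0.000304), as was AT5G57670, a protein kinase gene (-2.02, edgeR adjusted p = 0.000698). SNRK2.5 overlaps another listed locus and had mostly fractional counts, so its level is uncertain.

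Both wall genes were lower at 12 h than at 1 h, as were 19 of the 44 genes (8.33% of all genes tested). XTH15 (AT4G14130, chr4:8137020-8138392), a xyloglucan endotransglucosylase/hydrolase that remodels the cell wall, was the most abundant of the 44 genes. It had 245, 262 and 645 FPKM in the dark, 51.7, 51.2 and 73.1 at 1 h, 34.7, 28.5 and 21.4 at 2 h, 24, 52.7 and 47.2 at 4 h, 8.57, 7.23 and 9.4 at 8 h, and 11.8, 5.82 and 9.74 at 12 h. The 2 h libraries were all below the 1 h libraries, and the 8 h libraries all below the 4 h libraries. XTH15 fell between 1 h and 2 h (log2 fold change -1.18, SE 0.345, edgeR adjusted p = 0.0111) and between 4 h and 8 h (-2.23, SE 0.363, edgeR adjusted p = 0.00175). At 12 h it was lower than at 1 h (-2.68, SE 0.367, edgeR adjusted p = 2.85e-05). These calls held with any library left out. The call between 1 h and 2 h was lost with dark replicate 3 and 2 h replicate 3 left out together. XTH15 overlaps AT4G14120 on the opposite strand and all its counts were fractional, so reads of another gene may be among them. GH9B1 (AT1G70710), a cellulase-family wall enzyme, had 25.5, 37.6 and 11 FPKM in the dark, 8.59, 6.46 and 7.36 at 1 h, 13.8, 9.56 and 5.79 at 2 h, and 1.97, 2.5 and 2.8 at 4 h. It fell between 2 h and 4 h (log2 fold change -1.95, edgeR adjusted p = 0.0146), a call lost without 2 h replicate 1 or 4 h replicate 1. Its call at 12 h (-1.47 against 1 h, edgeR adjusted p = 0.0252) was lost without 1 h replicate 1 or 12 h replicate 2 or 3.

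All 4 metabolic and transport genes were lower at 12 h than at 1 h, as were 19 of the 44 genes (8.33% of all genes tested). CYS2, ST2A and ASPGB1 were among the 10 most abundant in the dark, and the sugar transporter gene AT5G61520 had a dark mean of 6.91 FPKM. CYS2 (AT2G31980), an inhibitor of cysteine proteases, had 295, 306 and 243 FPKM in the dark, 91, 84 and 70 at 1 h, 39.3, 35 and 53.4 at 2 h, 27.8, 26.2 and 22.8 at 4 h, 34.8, 71.5 and 29.9 at 8 h, and 37.4, 22.5 and 27.5 at 12 h. Its 2 h libraries were all below its 1 h libraries (log2 fold change -1.08, SE 0.282, edgeR adjusted p = 0.00579), a call lost without 2 h replicate 2 (-0.96) and with library size alone as the scaling (-0.94). CYS2 overlaps AT2G31970 on the opposite strand, so reads of that gene may be among its counts. ST2A (AT5G07010), a sulfotransferase that acts on a hydroxylated jasmonate, had 135, 166 and 139 FPKM in the dark, 46, 46.5 and 54.2 at 1 h, 19.1, 22.3 and 58.1 at 2 h, and 19.1, 23.6 and 19.2 at 12 h. The 2 h libraries spread on both sides of the 1 h ones, and 12 h was lower than 1 h (log2 fold change -1.24, SE 0.302, edgeR adjusted p = 0.00343). ASPGB1 (AT3G16150), an asparaginase, had 56.9, 149 and 67.5 FPKM in the dark, 34, 51.5 and 18.7 at 1 h, 13.2, 10.9 and 21.3 at 2 h and 12.1, 10.2 and 11 at 12 h. It was lower at 12 h than at 1 h (log2 fold change -1.65, SE 0.423, edgeR adjusted p = 0.00464). Its fall at 2 h (log2 -1.35, edgeR adjusted p = 0.015) was lost without 1 h replicate 2 or without 2 h replicate 1 or 2. The sugar transporter family gene AT5G61520 was lower at 12 h than at 1 h (log2 fold change -1.04, edgeR adjusted p = 0.0252), a call lost without 1 h replicate 1 or 12 h replicate 2 or 3.

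**Figure D4:**
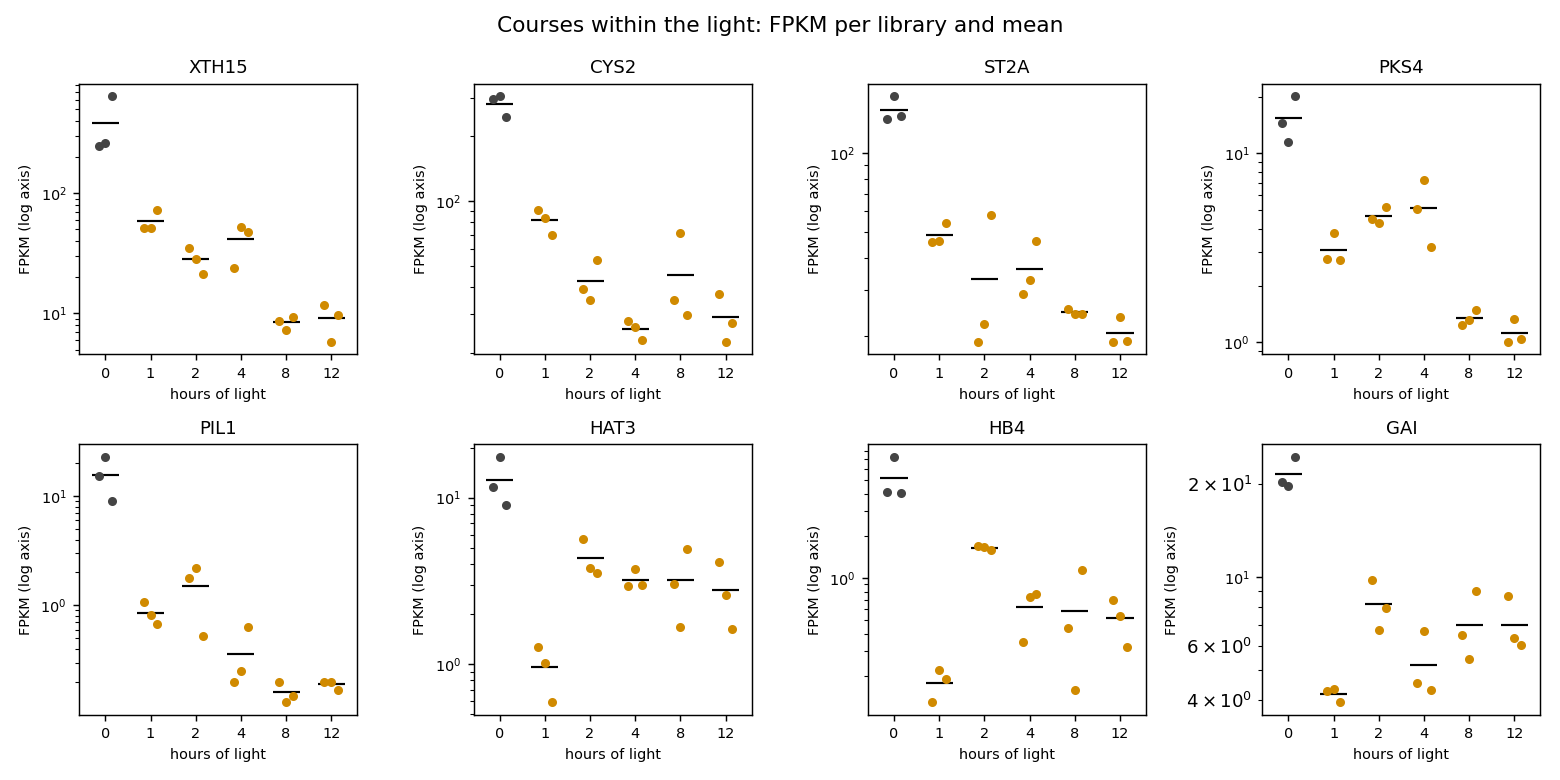
FPKM of 8 genes (vertical, log axes that differ between panels) by hours of light (horizontal). Points are libraries and bars their means, dark grey in the dark and orange in the light. XTH15, PKS4 and PIL1 end far below their 1 h values. PKS4, HAT3, HB4 and GAI have every 2 h point above every 1 h point.

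Only 2 genes rose at 4 h after a fall at 2 h. RTFL21 (AT1G67265), which encodes a small peptide of the ROTUNDIFOLIA-like (DEVIL) family, had 26.3, 33.7 and 25.9 FPKM in the dark, 1.57, 2.47 and 1.85 at 1 h, 0.61, 0.54 and 1.49 at 2 h, and 2.04, 2.65 and 2.04 at 4 h. The 2 h libraries were below all 1 h and 4 h libraries. The log2 fold change was -1.29 for 2 h over 1 h (edgeR adjusted p = 0.011) and 1.41 for 4 h over 2 h (edgeR adjusted p = 0.0146). AT2G25770, a lipid transport superfamily gene, had 6.22, 9.43 and 24.8 FPKM in the dark, 3.63, 5.04 and 3.58 at 1 h, 1.16, 1.68 and 2.03 at 2 h, and 5.56, 5.52 and 2.77 at 4 h. Its steps were -1.46 (edgeR adjusted p = 0.0133) and 1.58 (edgeR adjusted p = 0.0187). Both rises were lost without 2 h replicate 1 or 2 and without 4 h replicate 2, and that of AT2G25770 also without 4 h replicate 1. Both falls at 2 h were lost without 1 h replicate 2 or 2 h replicate 1, and that of RTFL21 also without 2 h replicate 2. RTFL16 (AT3G25717), of the same peptide family, had 10.4, 13.3 and 11.9 FPKM at 1 h, against 59, 68.5 and 38.7 FPKM in the dark, and no light step was called.

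Of 12 genes with little description, 6 were lower at 12 h than at 1 h (8.33% of all genes tested) and none was higher (14.7%). The call of 1 of them, TRM25 (AT5G62170, log2 fold change -1.11, edgeR adjusted p = 0.0172), was lost without 12 h replicate 2 or 3. AT4G01410, of a late embryogenesis abundant glycoprotein family, had 46.4, 51.6 and 59.5 FPKM in the dark, 17.4, 15.8 and 16.7 at 1 h, and 7.24, 5.65 and 5.71 at 12 h. Its replicates were tight, and 12 h was lower than 1 h (log2 fold change -1.42, SE 0.172, edgeR adjusted p = 8.48e-06). AT2G19660, a C1 domain gene, had 3.46, 2.59 and 3.99 FPKM at 1 h, 1.86, 2.02 and 1.6 at 2 h, and 0.25, 0.21 and 0.14 at 4 h. It fell between 2 h and 4 h (log2 fold change -3.12, SE 0.672, edgeR adjusted p = 0.00552), and the 4 h and 2 h libraries did not overlap. AT4G38820 fell in the same step (-3.26, SE 0.808, edgeR adjusted p = 0.0107), and held 0 to 1 count per library at 8 h. It overlaps AT4G38825 (SAUR13) on the opposite strand, which averaged 4.75 FPKM in the dark, 0 at 1 h, 1.38 at 2 h and 0.0967 at 4 h, so reads of the 2 genes may not be told apart. AT5G62280 had 6.88, 3.22 and 4.44 FPKM at 8 h, against 13.1, 19.6 and 7.58 FPKM at 4 h, a log2 fold change of -1.40 (edgeR adjusted p = 0.0223) whose call was lost without 4 h replicate 1 or 2 or 8 h replicate 2 or 3. AT1G15840 and AT5G02580 were among the 10 most abundant in the dark. AT1G15840 had 14, 8.12 and 12.3 FPKM at 1 h, against 32.7, 37.1 and 62.2 FPKM in the dark, with no light step called. AT5G02580 had 7.02, 8.61 and 8.29 FPKM at 1 h, against 30.6, 41.3 and 47.3 FPKM in the dark, and was lower at 12 h than at 1 h (log2 fold change -1.56, edgeR adjusted p = 0.00278). AT2G26695 had 0.66, 1.16 and 1.38 FPKM at 4 h, against 4.96, 1.59 and 1.76 FPKM at 2 h. Its fall in that step (log2 fold change -1.35, edgeR adjusted p = 0.0292) was lost without 2 h replicate 1 and without 4 h replicate 1 or 2. AT5G14360 averaged 1.42 ± 0.537 FPKM at 1 h and 6.84 ± 1.89 FPKM in the dark (SD, n = 3 each), with no light step called. AT1G74675 overlaps AT1G74670 (GASA6) on the opposite strand and had no whole-number count, so its values cannot be assigned to it with certainty.

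The 44 genes were shorter in structure than most. By RefSeq's TAIR10.1 annotation, 18 of the 44 (40.9%) have a single exon, against 19.9% of 27444 protein-coding genes. The median span was 1418 nt against 2078 nt. The 18 include the 5 copies of the SAUR19 group, and the 27444 genes were not limited to those expressed in the dark. Of 10 genes with values for more than 1 transcript, IAA20 had 95.2% to 98.4% of its dark FPKM in AT2G46990.1, whereas PIL1 had 31.5% to 59.7% in AT2G46970.3.

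The 250 nt upstream of the start held the G-box CACGTG in 6 of the 44 genes (13.6%), against 6.49% of 27443 genes, and the PBE-box CACATG in 11 (25.0%), against 11.1%. Within 1000 nt the G-box was in 12 (27.3%, against 14.8%) and the PBE-box in 30 (68.2%, against 37.7%). The auxin response elements TGTCTC and TGTCGG were in 5 (11.4%, against 10.9%) and 2 (4.55%, against 4.16%) of the 250 nt windows. The evening element AAATATCT was in 3 (6.82%, against 4.79%), the I-box GATAAG in 4 (9.09%, against 12.3%) and TATAAA in 15 (34.1%, against 47.3%). Matches were counted on both strands. The shares are a description, since the 5 copies of the SAUR19 group share sequence and no binding was measured. The 6 G-boxes are shown with 20 nt on each side, because flanking bases differ between them, from RefSeq TAIR10.1, 5′ to 3′ along the gene, with the G-box in capitals.
CYS2: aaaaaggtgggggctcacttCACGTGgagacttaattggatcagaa
AT4G01410: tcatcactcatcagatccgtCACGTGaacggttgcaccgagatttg
GH9B1: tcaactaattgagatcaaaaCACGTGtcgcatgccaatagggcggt
AT2G19660: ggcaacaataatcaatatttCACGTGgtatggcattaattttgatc
IAA20: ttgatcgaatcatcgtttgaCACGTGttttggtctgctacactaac
AT5G50335: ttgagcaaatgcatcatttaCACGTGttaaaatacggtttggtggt
They lie at chr2:13610034-13610079 (CYS2), chr4:577908-577953 (AT4G01410), chr1:26663371-26663416 (GH9B1), chr2:8498822-8498867 (AT2G19660), chr2:19307581-19307626 (IAA20) and chr5:20489785-20489830 (AT5G50335). The G-box begins 40 nt (AT2G19660) to 113 nt (IAA20) before the start. The 250 nt windows of CYS2 and AT2G19660 overlap exons of other genes (AT2G31981 and AT2G19670). Among the 44, those of SAUR19, GRF7 and AT4G38820 also overlap exons of other genes. CYS2, AT4G01410, GH9B1 and AT2G19660 were lower at 12 h than at 1 h, as were 19 of the 44 genes (8.33% of all genes tested). The call of GH9B1 was lost without 1 h replicate 1 or 12 h replicate 2 or 3. No difference between 12 h and 1 h was called for IAA20 or AT5G50335. A link between the G-box and the course in light was not tested. AT5G50335 was the only one of the 44 that did not pass the expression filter on the light libraries alone.

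**Figure D5:**
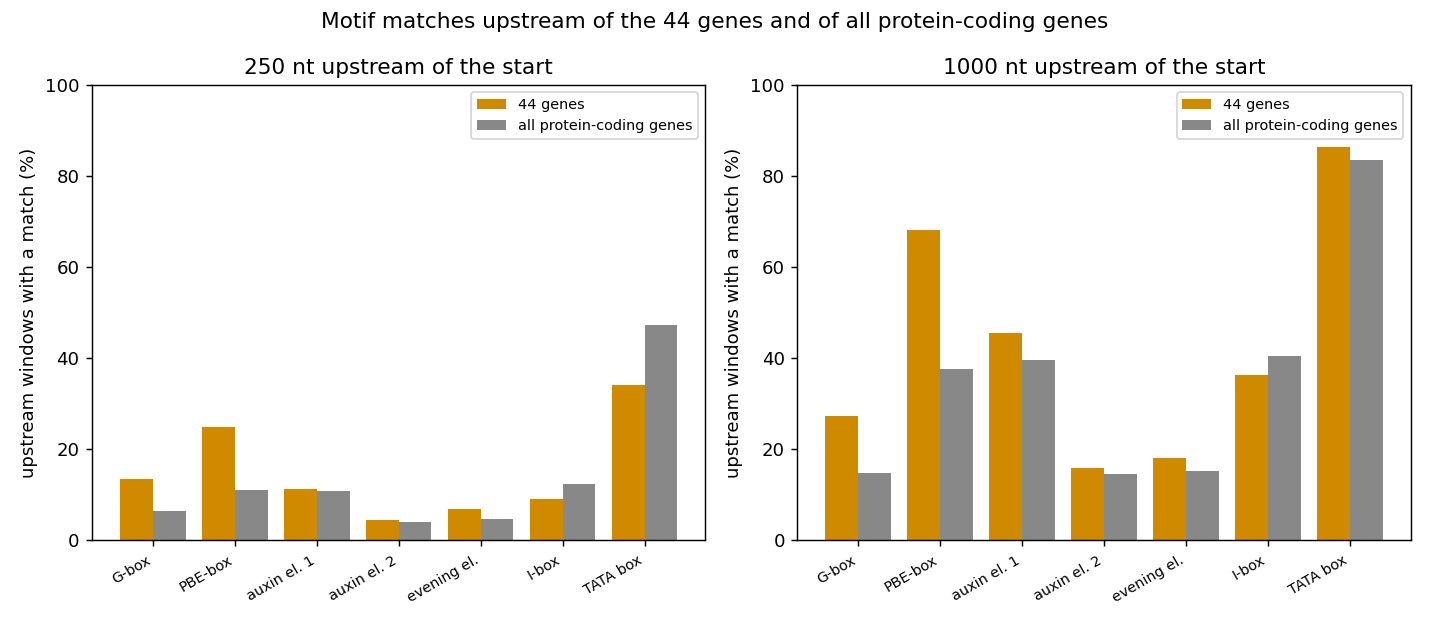
Bars give the percentage of upstream windows with a match, for the 44 genes (orange, left of each pair) and for all protein-coding genes (grey), in windows of 250 nt and 1000 nt. Auxin elements 1 and 2 are TGTCTC and TGTCGG. The widest gap is for the PBE-box within 1000 nt, at 68.2% against 37.7%.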

How the data were processed

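A gene table and a transcript table were used for each of the 18 libraries. Their values, per the file headers, are an expected count (the authors' estimate of reads, often fractional) and FPKM (made by the authors relative to length and depth). RSEM, Bowtie2 and HISAT2 are named in the submitters' processing notes, without versions; their roles, the strand setting and the genome build are not given in the sources used here. Genes absent from a table were set to 0. The gene coordinates were compared with RefSeq TAIR10.1, whose genome gave the upstream sequences.

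The rule was applied to deposited FPKM. The members and lists were chosen with earlier results of these data known, and roles were assigned after values were seen. After rounding to whole numbers, the expected counts were fitted with edgeR 4.0.16 in R 4.3.3, with TMM scaling, the expression filter (20569 genes) and a term for each of the 6 groups. A call needed a Benjamini-Hochberg adjusted p under 0.05 over all genes tested and a log2 fold change of 1 or more in either direction. The SE is the size of the fold change over the root of the F statistic. The labels do not say that replicates came from separate cultures, so p-values measure only the spread between these samples. The floor is 3 counts per library and covers counting error only. The fit was tested on simulated data.

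Genes named with values were the 10 with the highest dark mean, the 10 lowest ratios of 1 h to dark, up to 5 in each direction per light comparison, those in a list and those nearest each limit; others are named after their values were seen. Alternatives were other scalings, filters, DESeq2 1.42.0, the replicate block, other limits of the rule and each library left out, with the 15 light libraries alone and both replicate 3 libraries of 0 h and 2 h left out added after seeing the data.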

Additional observations from a re-analysis of the deposited data

How the results depend on the processing

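The number of genes meeting the rule, 44, was 92 with a ratio of 2 and 28 with a dark minimum of 10 FPKM, and ranged over 41 to 61 with each library left out in turn. The count called for 4 h against 2 h, 17, ranged over 11 to 21, with 11 without 2 h replicate 1 and 11 without 4 h replicate 1. The ranges of the other counts were 10 to 20 for 2 h against 1 h, 2 to 4 for 8 h against 4 h, 17 to 22 for 12 h against 1 h and 31 to 37 for any difference among the light times. For 12 h against 8 h the count was 0 throughout. For the list genes called against the dark they were 67 to 93 at 1 h and 104 to 123 at 12 h. Of the 6 falls at 2 h, 1 (XTH15) was called with any library left out, though not without dark replicate 3 and 2 h replicate 3 together. Of the 15 falls at 4 h, 10 were, and of the 19 genes lower at 12 h than at 1 h, 15 were. Of 676 alternative values for 26 named fold changes, 653 kept their call, 23 kept their direction but not their call, and none reversed. Samples with the same replicate number showed little shared deviation on average (mean correlations of -0.2 to 0.099, single values of -0.395 to 0.239). The main fit did not pair the libraries. Whether replicate numbers mark a shared batch is not given by the labels and cannot be settled by these correlations. With the replicate block the counts were 14 for 2 h against 1 h, 17 for 4 h against 2 h, 3 for 8 h against 4 h, 20 for 12 h against 1 h and 35 among the light times. The cause of these changes was not tested. Low counts of the SAUR genes at 1 h and from 4 h on limit their fold changes, and 9 genes with mostly fractional counts and 5 that overlap other loci, 11 with either, are uncertain.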
